A study of Mus musculus with 6 samples.

Results

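The 10 lineage marker genes described here mark the epithelium of the lung: the transcriptional regulators Nkx2-1 and Hopx, the surfactant protein genes Sftpa1, Sftpb, Sftpc and Sftpd, the club cell gene Scgb1a1, and Aqp5, Pdpn and Ager of alveolar type I cells. They were read by 14 probe sets, chosen because the platform annotation gives each of these exactly 1 gene symbol and that symbol is a listed marker. They are 14 of the 45101 probe sets on the array and 10 of the 18193 genes that could be tested. All arrays, of an Affymetrix mouse design, carried RNA of 344SQ, a lung cancer cell line of the mouse. The PIK3CA shRNA group was 3 samples of 344SQ cells given vectors that express a short hairpin RNA (shRNA) against mouse Pik3ca, which encodes the catalytic p110-alpha subunit of phosphoinositide 3-kinase. The control shRNA group was 3 samples of the same line given a control shRNA. Every sample came from this single line, grown in RPMI medium with serum, and the labels do not say whether cells were cloned or pooled after transfection, how many hairpins were used, or whether replicates were separate cultures. All p-values thus rest on differences among these 6 samples and could reflect technical spread alone.

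The distal lung is lined by flat alveolar type I cells, across which gas is exchanged, and by cuboidal alveolar type II cells, which store and secrete surfactant. Surfactant lowers surface tension, and its hydrophobic proteins are encoded by Sftpb and Sftpc, while the collectins of Sftpa1 and Sftpd bind microbes. Nkx2-1 is the homeodomain factor that specifies lung epithelium and is used to classify lung adenocarcinoma, and its product activates surfactant gene promoters.

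Intensities are given on a linear scale as deposited, and each difference is the PIK3CA shRNA mean less the control shRNA mean of log2(intensity + 16), a scale that shrinks changes of dim probe sets. The median intensity per array was 134.6 to 135.0, and 15% of values on each array lay below 16, the pseudocount. There were no detection calls, so absence cannot be stated for any gene, and precision is limited by having 3 arrays a group. Brightness also depends on the probes, so levels of different genes are not ranked. The targeted gene was lower on every PIK3CA shRNA array. By its brightest probe set Pik3ca averaged 1236 ± 13.1 in PIK3CA shRNA cells and 2379 ± 66.3 in control shRNA cells (SD, n = 3 each), and 5 of its 6 probe sets passed in the lower direction.

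Aqp5 was the only marker of the 10 that passed the test in the fit over all genes by each gene's brightest probe set, and it fell. Limma with Benjamini-Hochberg adjustment over 18193 genes called 1 of 10 markers at adjusted p 0.05, against 11.5% of all genes. The count was 0 of 10 higher and 1 of 10 lower, against 5.87% and 5.63% of all genes, and at an unadjusted limma p of 0.05 it was the same, 0 higher and 1 lower. The median difference of the 10 markers was -0.04, beside -0.01 over all genes. The 2 markers whose groups did not overlap were Aqp5 and Sftpb, against 33.1% of all genes. Neither share stood above the background.

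**Figure D1:**
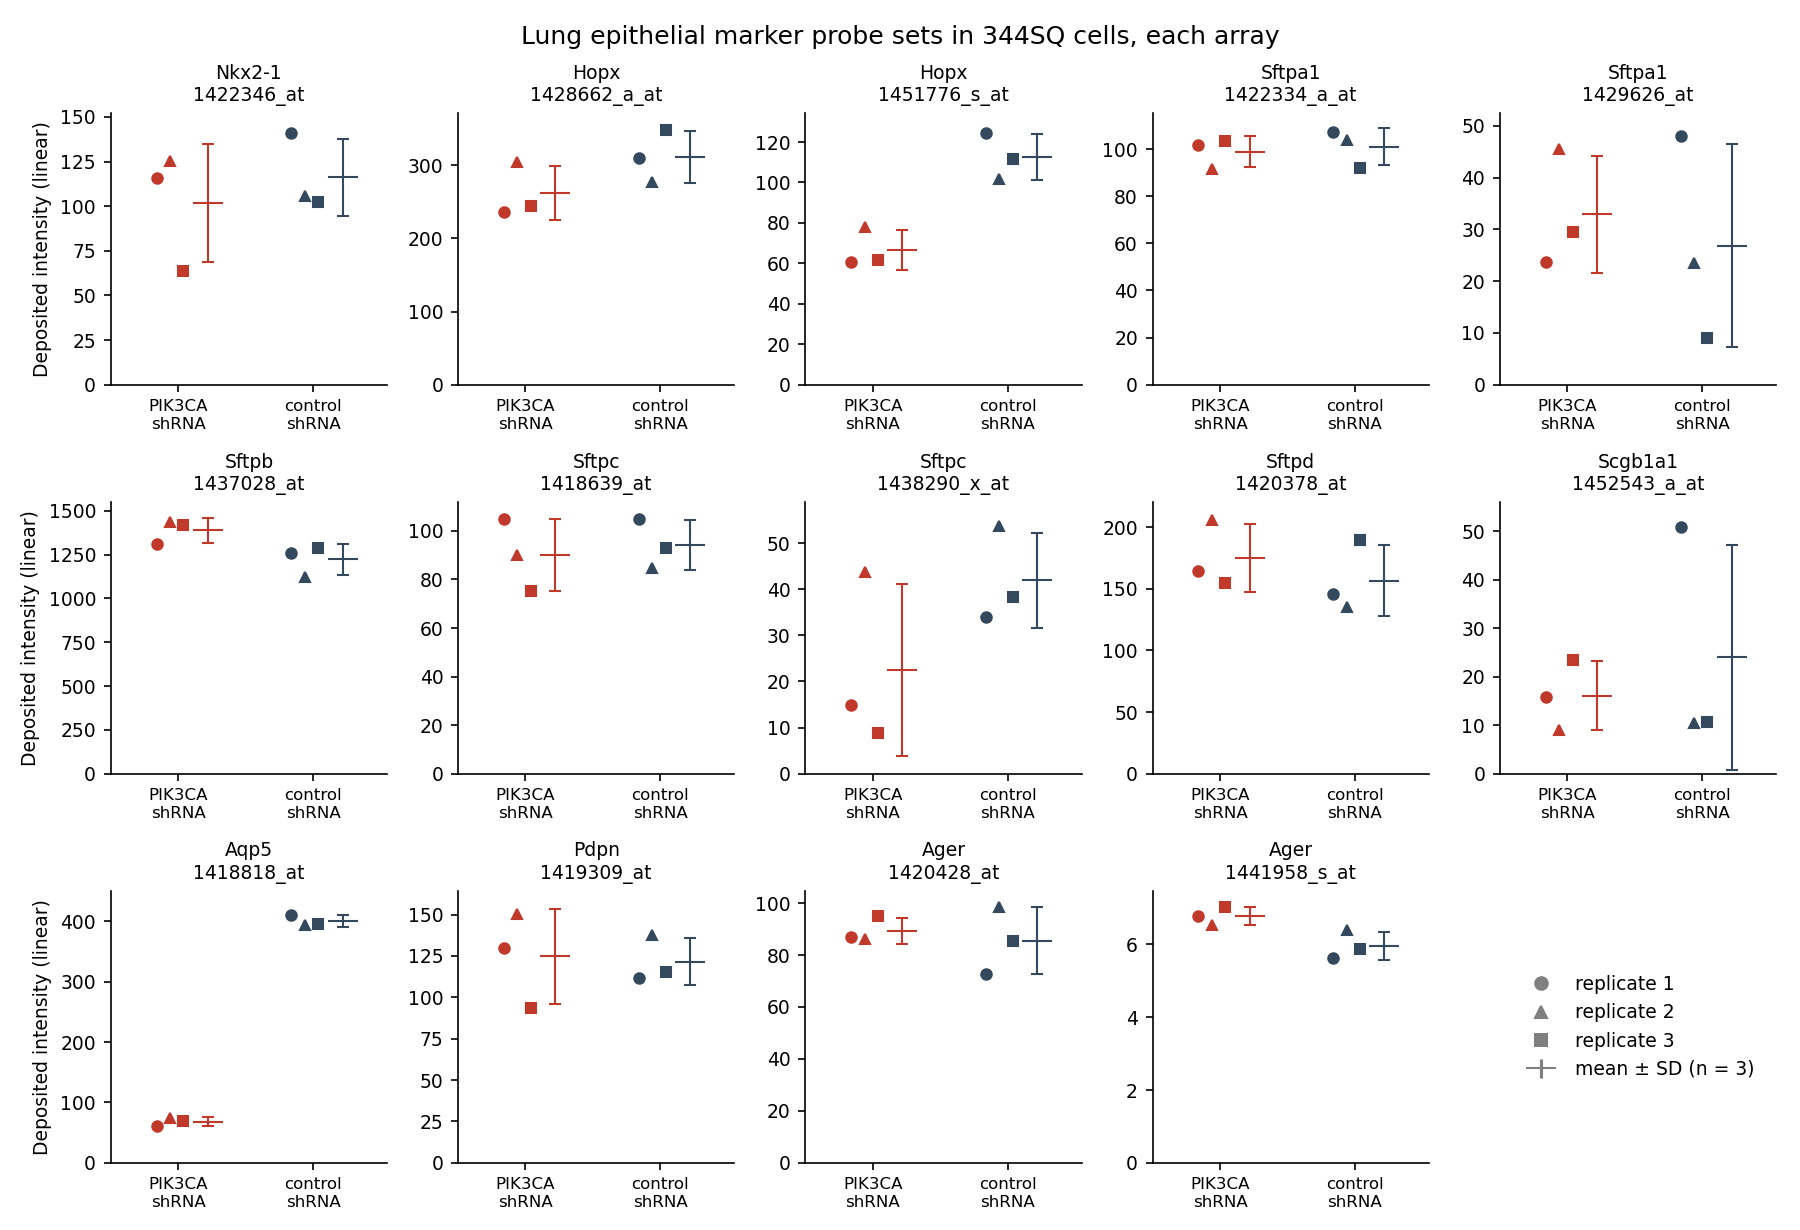
Deposited linear intensity (vertical axes, each starting at 0) of the 14 probe sets of the 10 lineage markers on the 3 PIK3CA shRNA arrays (left, red) and the 3 control shRNA arrays (right, dark), with the mean and SD of each group. Aqp5 lies between 60.1 and 74.2 on PIK3CA shRNA arrays and between 394.6 and 411.2 on control shRNA arrays, while the groups overlap in 10 of the 14 panels.

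Aqp5 encodes the water channel of the apical membrane of alveolar type I cells and of gland cells. Its probe set read 60.1, 74.2 and 69.7 on the 3 PIK3CA shRNA arrays, against 411.2, 394.6 and 395.1 on the 3 control shRNA arrays. Every PIK3CA shRNA array was far below every control shRNA array, and the arrays within each group were close together. The mean was 68.0 ± 7.20 in PIK3CA shRNA cells and 400.3 ± 9.48 in control shRNA cells (SD, n = 3 each), or 17.0% of the control intensity. Aqp5 fell by 2.31 on the log2 scale with a standard error of 0.08 (95% interval -2.51 to -2.11, limma adjusted p = 0.000161). An exact two-sided permutation test gave p = 0.1, which is the lowest value reachable with 3 arrays a group. By size it was the seventh of the 1024 genes that fell, and it has 1 probe set on the array, so no other probe set could be set beside it. Leaving out any 1 array gave values of -2.37 to -2.24, with limma adjusted p between 0.00164 and 0.00255.

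In control shRNA cells the Aqp5 signal was brighter than 70.2% to 70.9% of all probe sets on its array. In PIK3CA shRNA cells it was brighter than 32.8% to 37.0% of them. The signal in PIK3CA shRNA cells was thus below the array median.

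The 250 bases before the annotated start of Aqp5 are shown because this gene carries the change. They are from RefSeq on build GRCm38.p6 (chr15:99590778-99591027, plus strand), printed 5′ to 3′, with capitals marking matches to the SP1-type motif GGGCGG on either strand.
Aqp5: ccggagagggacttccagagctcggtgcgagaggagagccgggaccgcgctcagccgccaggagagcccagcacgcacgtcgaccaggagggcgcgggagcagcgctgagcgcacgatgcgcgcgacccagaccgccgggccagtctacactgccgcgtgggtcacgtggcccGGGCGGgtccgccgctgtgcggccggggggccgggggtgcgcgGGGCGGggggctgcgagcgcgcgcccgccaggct
This stretch has 78.4% G and C with 38 CpG dinucleotides, against medians of 52.4% and 6 over 32851 such upstream regions. It holds 2 matches to GGGCGG, a motif found in 32.7% of those regions. The other motifs searched on both strands were CTCAAG (NKX2-1 type, in 13.3% of regions), TGTTTAC (shared by FOXA and FOXO factors, in 3.2%), the GATA-type letters AGATAA with their variant TGATAA (either in 16.6%) and TTGCGCAA (C/EBP type, in 0.2%). None of these letter strings is in the Aqp5 stretch, and a match or its lack is only a description of these letters.

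Aqp5 lies in a cluster with 2 other water channel genes, with Aqp2 on one side and Aqp6 on the other in the RefSeq gene order. Neither neighbour passed the test. Aqp2, the vasopressin-regulated channel of the kidney, read 171.5, 255.7 and 203.4 on PIK3CA shRNA arrays, against 207.9, 286.0 and 242.4 on control shRNA arrays, and these ranges overlap. Its difference was -0.22 with a 95% interval of -0.65 to 0.22 (limma adjusted p = 0.519). Aqp6, an intracellular channel of kidney cells, averaged 275.3 ± 38.3 in PIK3CA shRNA cells and 272.8 ± 9.40 in control shRNA cells (SD, n = 3 each), with a difference of 0.00 and an interval of -0.27 to 0.27 (limma adjusted p = 0.988).

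Of the 10 measured genes nearest to Aqp5, 5 on each side, 2 passed in limma's fit, against 11.5% of all genes. They did so in opposite directions, 1 higher and 1 lower, against 5.87% and 5.63% of all genes. Racgap1, which encodes a GTPase-activating protein of cytokinesis, fell by 0.33 (adjusted p = 0.0483). Gpd1, which encodes cytosolic glycerol-3-phosphate dehydrogenase, rose by 0.55 (adjusted p = 0.0336). The probe set that stood for Gpd1 is of a kind whose probes may also match other sequences. By the most variable probe set of each gene the values were -0.56 for Racgap1 and 1.29 for Gpd1, and both passed. By the brightest probe sets both calls were lost without any 1 of the 6 arrays (adjusted p 0.0901 to 0.142 for Racgap1 and 0.0648 to 0.0989 for Gpd1). The other 8 had differences between -0.75 and 0.21 and did not pass. The median over the 729 tested genes of chromosome 15 was -0.02. The neighbours were examined after the Aqp5 values had been seen.

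**Figure D2:**
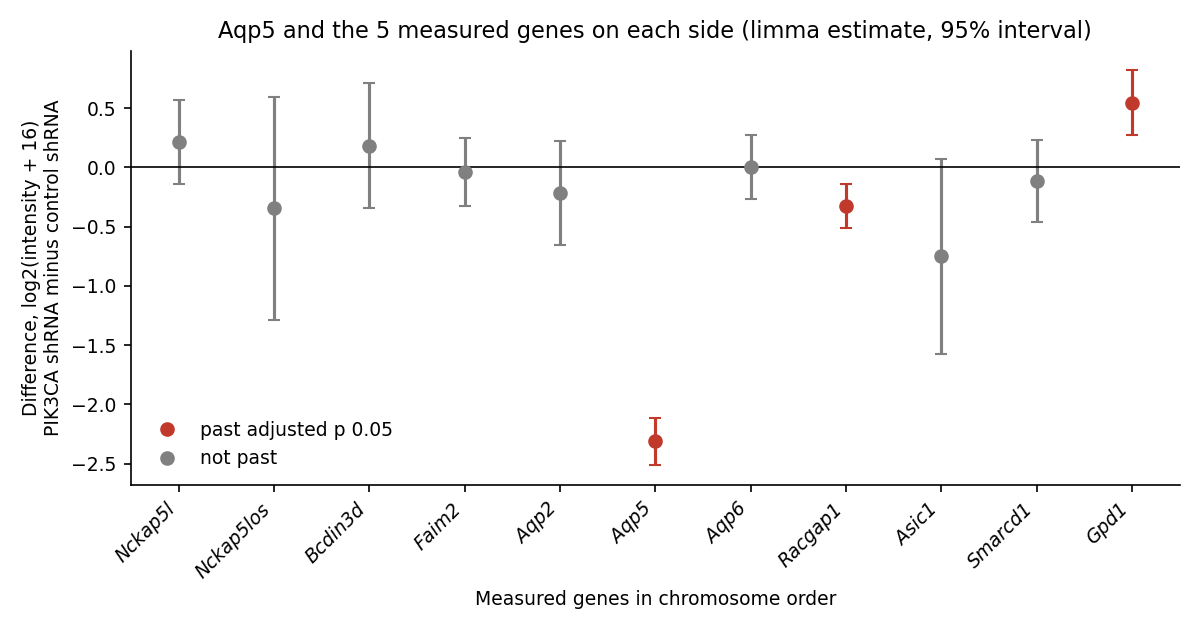
Log2(intensity + 16) difference, PIK3CA shRNA less control shRNA (vertical axis, limma estimate with 95% interval) for Aqp5 and the 5 measured genes on each side in chromosome order (horizontal axis, not to scale). Aqp5 lies at -2.31, while the other 10 genes lie between -0.75 and 0.55, with Racgap1 and Gpd1 past adjusted p 0.05.

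Across the aquaporin family, 1 of 12 measured genes rose and 2 fell, of which Aqp5 is one, against 5.87% and 5.63% of all genes. Aqp8, a channel for water and peroxide in gut and liver, read 96.4, 131.7 and 216.0 on PIK3CA shRNA arrays, against 407.6, 400.4 and 401.1 on control shRNA arrays. All 3 PIK3CA shRNA arrays were lower, with a wide spread among them. Aqp8 fell by 1.42 (standard error 0.26, limma adjusted p = 0.0268), and leaving out any 1 array other than PIK3CA shRNA replicate 3 ended that call (adjusted p up to 0.0876). Aqp1, the water channel of endothelium and red cells, read 161.8, 132.4 and 167.9 on PIK3CA shRNA arrays, against 79.1, 61.0 and 50.3 on control shRNA arrays. It rose by 1.11 (standard error 0.16, limma adjusted p = 0.0128), and the call was lost without PIK3CA shRNA replicate 1, PIK3CA shRNA replicate 3 or control shRNA replicate 2 (adjusted p up to 0.0551). The remaining 9 members lay between -0.26 and 0.24 and did not pass.

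Genes with profiles like that of Aqp5 were sought among 8880 candidates. In these, the mean of the higher group lay above the median of such means over all genes, and the symbol was not a clone identifier. By the rule of smallest Euclidean distance over the 6 arrays after centring each gene, 3 of them were most like Aqp5. They were Rps6ka6 (distance 0.458), which encodes a ribosomal S6 kinase, Cd300lb (0.482), a leukocyte-type surface receptor gene, and Foxd1 (0.518), a forkhead factor gene. Rps6ka6 read 56.3, 43.2 and 43.8 on PIK3CA shRNA arrays, against 257.5, 278.0 and 286.5 on control shRNA arrays. The differences were -2.19 for Rps6ka6, -2.35 for Cd300lb and -2.01 for Foxd1. A fall of such a size was built into the choice by likeness to Aqp5 and is not a separate result. By its most variable probe set Rps6ka6 was -4.31.

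Neither Pdpn nor Ager passed the test. Pdpn, which encodes podoplanin, a mucin-type glycoprotein of the type I cell surface, read 129.9, 150.5 and 93.7 on PIK3CA shRNA arrays, against 111.9, 137.9 and 115.1 on control shRNA arrays. The groups overlapped, and the difference was 0.02 with a 95% interval of -0.42 to 0.45 (limma adjusted p = 0.970). Its sign turned negative when PIK3CA shRNA replicate 1 or 2, or control shRNA replicate 1 or 3, was left out, with values between -0.12 and 0.18 over the 6 leave-outs.

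Ager encodes the receptor for advanced glycation end products, which is abundant on type I cells. Its brighter probe set read 86.8, 86.1 and 94.96 on PIK3CA shRNA arrays, against 72.6, 98.4 and 85.5 on control shRNA arrays. The control range enclosed the PIK3CA shRNA range, and the difference was 0.06 (95% interval -0.21 to 0.33, limma adjusted p = 0.790). Without control shRNA replicate 1 it was -0.04. The dimmer Ager probe set read 6.53 to 7.04 in PIK3CA shRNA cells and 5.62 to 6.39 in control shRNA cells, all below the pseudocount, and did not pass in the fit over all probe sets (adjusted p = 0.715).

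The intensity of Aqp5 relative to the other markers within each array shows the same contrast. Each log2 ratio here is of intensity plus pseudocount, not of the printed intensities alone. The log2 ratio of Aqp5 over Pdpn was -0.94 to -0.36 on PIK3CA shRNA arrays and 1.42 to 1.74 on control shRNA arrays. The ratio of Aqp5 over Ager was -0.43 to -0.18 on PIK3CA shRNA arrays and 1.84 to 2.27 on control shRNA arrays. For each of the 9 other markers the ratio was lower on every PIK3CA shRNA array than on any control shRNA array, with mean differences from -2.07 (Hopx) to -2.50 (Sftpb). The exact two-sided permutation p was 0.1 for each of these 9 ratios, the smallest possible, and Aqp5 is in all of them. The other markers differed by only -0.24 to 0.18, so these ratios restate the fall of Aqp5 and are not separate results.

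**Figure D3:**
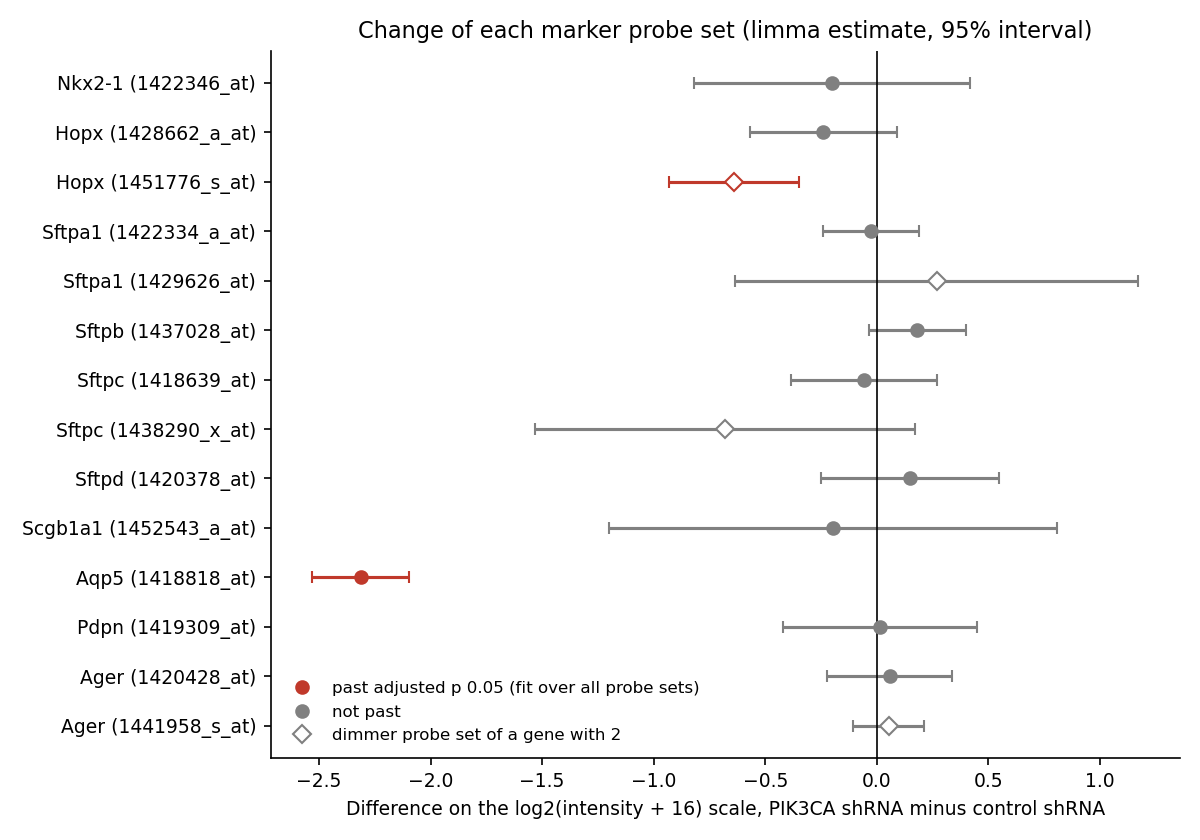
Log2(intensity + 16) difference, PIK3CA shRNA less control shRNA (horizontal axis, limma estimate with 95% interval) for the 14 probe sets of the 10 lineage markers. Aqp5 lies at -2.31 and the dimmer Hopx probe set at -0.64, both past adjusted p 0.05 in the fit over all probe sets, and the intervals of the other 12 cross 0.

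Hopx encodes a small homeodomain-only protein that does not bind DNA and marks type I cells and their progenitors. Its 2 probe sets read differently. The brighter probe set read 236.5, 304.9 and 244.3 on PIK3CA shRNA arrays, against 309.5, 277.1 and 347.4 on control shRNA arrays. The groups overlapped, and the difference was -0.24 (95% interval -0.56 to 0.08, limma adjusted p = 0.322).

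The dimmer Hopx probe set read 60.5, 77.8 and 61.6 on PIK3CA shRNA arrays, against 124.6, 101.6 and 111.6 on control shRNA arrays. Here every PIK3CA shRNA array was below every control shRNA array. The mean was 66.6 ± 9.69 in PIK3CA shRNA cells and 112.6 ± 11.5 in control shRNA cells (SD, n = 3 each), or 59.2% of control. It fell by 0.64 with a standard error of 0.12 in limma's fit over all 45037 probe sets (adjusted p = 0.0423). In that fit 2 of the 14 marker probe sets passed, Aqp5 and this one, against 4.95% of all probe sets. Both were lower, against 2.30% of all probe sets. Groups did not overlap in 4 of the 14, against 27.3% of all probe sets. Leaving out any 1 of the 6 arrays ended the call of the dimmer Hopx probe set, with values of -0.74 to -0.58 and adjusted p from 0.0508 to 0.138.

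The log2 ratio of the dimmer over the brighter Hopx probe set was likewise taken of intensity plus pseudocount. It was -1.77 to -1.72 on PIK3CA shRNA arrays and -1.51 to -1.21 on control shRNA arrays. The ranges did not overlap (difference -0.40, exact two-sided permutation p = 0.1, the smallest possible). RefSeq lists 2 start sites for Hopx, and the 250 bases before each are shown for their contrast, from build GRCm38.p6, 5′ to 3′, with capitals marking the only motif match, CTTGAG, which is CTCAAG read on the other strand. Which transcript each probe set reads was not tested.
Hopx upstream start (chr5:77115124-77115373, minus strand): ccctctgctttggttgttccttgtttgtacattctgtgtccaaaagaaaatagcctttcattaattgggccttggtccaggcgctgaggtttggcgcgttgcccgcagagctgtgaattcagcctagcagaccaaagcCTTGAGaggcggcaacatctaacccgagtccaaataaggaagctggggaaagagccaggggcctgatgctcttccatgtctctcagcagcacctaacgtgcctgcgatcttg
Hopx downstream start (chr5:77095268-77095517, minus strand): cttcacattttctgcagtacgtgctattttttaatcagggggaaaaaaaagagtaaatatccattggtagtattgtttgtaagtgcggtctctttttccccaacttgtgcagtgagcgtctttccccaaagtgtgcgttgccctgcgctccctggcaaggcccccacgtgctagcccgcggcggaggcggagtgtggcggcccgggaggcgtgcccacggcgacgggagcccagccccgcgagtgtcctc
The stretch before the upstream start has 8 CpG dinucleotides and the one before the downstream start has 18.

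Nkx2-1 gave no call. Its only probe set read 115.8, 125.2 and 63.9 on PIK3CA shRNA arrays, against 141.1, 105.4 and 102.1 on control shRNA arrays. PIK3CA shRNA replicate 3 was the lowest array, and the other 5 overlapped. The difference was -0.20 with a 95% interval of -0.82 to 0.42 (limma adjusted p = 0.682), and it was 0.06 without PIK3CA shRNA replicate 3. The signal was brighter than 33.9% to 48.4% of probe sets on PIK3CA shRNA arrays and 43.8% to 51.0% on control shRNA arrays, so it lay below the array median on every array except control shRNA replicate 1.

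Among the surfactant genes, 0 of 4 passed limma's test in either direction, and 0 were below an unadjusted p of 0.05. Sftpb, which encodes the hydrophobic surfactant protein B required for surfactant film formation, was brighter than at least 85.4% of all probe sets on every array. It read 1308, 1438 and 1421 on PIK3CA shRNA arrays, against 1257, 1123 and 1289 on control shRNA arrays. The lowest PIK3CA shRNA array stood just above the highest control shRNA array. The mean was 1389 ± 70.6 in PIK3CA shRNA cells and 1223 ± 88.0 in control shRNA cells (SD, n = 3 each), a difference of 0.18 with a 95% interval of -0.02 to 0.38 (limma adjusted p = 0.228, exact two-sided permutation p = 0.1, the smallest possible).

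Sftpa1 encodes the collectin surfactant protein A. Its brighter probe set averaged 98.9 ± 6.55 in PIK3CA shRNA cells and 101.0 ± 7.89 in control shRNA cells (SD, n = 3 each), with a difference of -0.03 and a 95% interval of -0.23 to 0.17 (limma adjusted p = 0.875). It turned to 0.02 without PIK3CA shRNA replicate 2 and to 0.01 without control shRNA replicate 1. The dimmer probe set read 23.8, 45.5 and 29.4 on PIK3CA shRNA arrays, against 47.9, 23.6 and 9.07 on control shRNA arrays. Its difference of 0.27 had an interval of -0.63 to 1.17, so the probe sets have opposite signs and neither passed.

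Sftpc, which encodes surfactant protein C and is the marker most particular to type II cells, read 105.1, 90.2 and 75.4 on PIK3CA shRNA arrays by its brighter probe set, against 105.0, 84.7 and 92.7 on control shRNA arrays. The difference was -0.06 (95% interval -0.38 to 0.26, limma adjusted p = 0.829), and it was positive without PIK3CA shRNA replicate 3 (0.05) or control shRNA replicate 1 (0.01). The dimmer probe set is of a kind whose probes may also match other sequences. It read 14.9, 43.6 and 8.86 on PIK3CA shRNA arrays, against 34.0, 53.6 and 38.2 on control shRNA arrays. Its groups overlapped, and the difference of -0.68 had an interval of -1.53 to 0.17 (adjusted p = 0.352 in limma's fit over all probe sets).

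Sftpd encodes the collectin surfactant protein D. It read 164.7, 206.0 and 154.5 on PIK3CA shRNA arrays, against 145.5, 134.9 and 189.9 on control shRNA arrays, and the groups overlapped. The difference was 0.15 with a 95% interval of -0.25 to 0.55 (limma adjusted p = 0.629).

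The 250 bases before the starts of Sftpb and Sftpa1 are shown as the surfactant genes with a RefSeq entry in the table used, which held 7 of the 10 markers. They are from build GRCm38.p6, 5′ to 3′, with capitals marking CTCAAG, the NKX2-1-type motif.
Sftpb (chr6:72304360-72304609, plus strand): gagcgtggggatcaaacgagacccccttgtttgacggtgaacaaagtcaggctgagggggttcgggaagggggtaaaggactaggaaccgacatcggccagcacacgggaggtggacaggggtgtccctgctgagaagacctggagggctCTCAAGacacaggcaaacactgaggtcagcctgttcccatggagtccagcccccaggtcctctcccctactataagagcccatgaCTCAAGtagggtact
Sftpa1 (chr14:41131538-41131787, plus strand): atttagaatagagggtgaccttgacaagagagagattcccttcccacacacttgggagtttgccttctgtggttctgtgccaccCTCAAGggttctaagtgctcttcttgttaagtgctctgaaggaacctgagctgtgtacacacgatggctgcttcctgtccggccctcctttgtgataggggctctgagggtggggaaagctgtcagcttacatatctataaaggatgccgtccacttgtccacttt
Sftpb has 2 matches and Sftpa1 has 1, and 13.3% of all such regions have at least 1. No other searched motif is in either stretch, and a match is not evidence of binding.

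Scgb1a1, which encodes the secretoglobin of club cells in the airways, was dim on most arrays. It read 15.9, 9.06 and 23.4 on PIK3CA shRNA arrays, against 50.9, 10.5 and 10.7 on control shRNA arrays. Of the 6 values, 4 lay below the pseudocount and control shRNA replicate 1 stood apart from the others. The difference was -0.20 with a wide 95% interval of -1.21 to 0.82 (limma adjusted p = 0.817), and it was 0.25 without that array.

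The 9 markers other than Aqp5 had differences between -0.24 and 0.18 by their brightest probe sets. For 8 of these 9, the unadjusted 95% interval of that probe set lay within -1 and 1. On this scale those bounds are a 2-fold change in intensity plus pseudocount. The exception was Scgb1a1. Among the dimmer probe sets, the intervals of Sftpc (-1.53 to 0.17) and Sftpa1 (-0.63 to 1.17) also went beyond these bounds. For dim markers a change in the transcript could be larger than that scale shows.

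Further marker lists for lung epithelium gave calls in both directions. Of 19 measured other alveolar type II markers, 2 rose and 0 fell by limma (2 higher and 4 lower at an unadjusted p of 0.05), and the called share is near the 11.5% of all genes. Muc1, a transmembrane mucin, rose by 3.21 (limma adjusted p = 0.00296). Fabp5, which encodes a fatty acid-binding protein, read 6539, 6285 and 6379 on PIK3CA shRNA arrays, against 2018, 2171 and 2091 on control shRNA arrays. It rose by 1.60 (standard error 0.06, limma adjusted p = 0.000176), and both of its probe sets passed. Neither gene is particular to type II cells. Napsa, the aspartic protease of surfactant processing, read 12.1 to 24.95 in PIK3CA shRNA cells and 19.3 to 55.5 in control shRNA cells, with a difference of -0.45 (adjusted p = 0.416). Abca3, the lamellar body lipid transporter, differed by -0.03 (adjusted p = 0.909). The list's median difference was -0.03, beside -0.01 over all genes.

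Of 18 other alveolar type I markers, 1 rose and 3 fell (4 higher and 6 lower at an unadjusted limma p of 0.05), against 5.87% and 5.63% of all genes. Their median difference was -0.11. Clic5, a chloride intracellular channel family gene, read 46.9, 60.8 and 68.1 on PIK3CA shRNA arrays, against 119.0, 158.8 and 117.8 on control shRNA arrays. It fell by 0.99 (limma adjusted p = 0.0177). Only 1 of its 4 probe sets passed in the fit over all probe sets. As the mean of probe sets the value was -0.27 (adjusted p = 0.220), which did not pass. With a pseudocount of 1 a different Clic5 probe set was the brightest and stood for the gene. That one read 86.3, 69.9 and 73.3 on PIK3CA shRNA arrays, against 95.1, 102.9 and 102.7 on control shRNA arrays. Its value was -0.39 (adjusted p = 0.0753), so this setting changed the probe set and not only the pseudocount. The call was also lost without PIK3CA shRNA replicate 1, PIK3CA shRNA replicate 2 or control shRNA replicate 1 (adjusted p up to 0.0565). Ndnf, a secreted factor gene, fell by 0.52 (adjusted p = 0.0123, and 0.0501 without control shRNA replicate 3). Only 1 of its 2 probe sets passed, and the call was lost as the mean of both (adjusted p = 0.0556) or by the more variable one (adjusted p = 0.183). That more variable one was dim, at 2.10 to 5.54 in PIK3CA shRNA cells and 6.77 to 30.0 in control shRNA cells. Its difference was -0.70, in the same direction.

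Rtkn2 fell by 0.52 (limma adjusted p = 0.0295), and its call was lost without any 1 of the 6 arrays (adjusted p 0.0509 to 0.0991). Clic3, of the same family as Clic5, rose by 0.66 (adjusted p = 0.0354), a call kept only when PIK3CA shRNA replicate 2 was left out and otherwise lost (adjusted p up to 0.111). In limma's fit over all probe sets neither gene passed (adjusted p = 0.0539 for Rtkn2 and 0.0595 for Clic3).

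Of 31 measured lung epithelial transcription factor genes, 4 rose and 1 fell (7 higher and 5 lower at an unadjusted limma p of 0.05), against 5.87% and 5.63% of all genes. Their median difference was 0.08. Hnf4a, a nuclear receptor of liver and gut that is not typical of normal lung, read 3658, 4141 and 3992 on PIK3CA shRNA arrays, against 1838, 1807 and 1688 on control shRNA arrays. It rose by 1.14 (limma adjusted p = 0.00122), and 3 of its 4 probe sets passed. Id2, a helix-loop-helix inhibitor expressed in distal lung tips, rose by 0.78 (adjusted p = 0.00215), and all 3 of its probe sets passed, with 1.23 by the most variable of them.

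Foxa1, a pioneer factor of lung and gut endoderm, rose by 0.38 (limma adjusted p = 0.0140), a call kept only when PIK3CA shRNA replicate 2 was left out and otherwise lost (adjusted p up to 0.0588). Irx5, an Iroquois homeobox gene, fell by 0.38 (adjusted p = 0.0141), and its call was lost in 4 of the 6 leave-outs, those of PIK3CA shRNA replicates 1 and 3 and control shRNA replicates 2 and 3 (adjusted p up to 0.0586). The remaining rise was in Nr3c1, the glucocorticoid receptor gene, at 0.32 (adjusted p = 0.0467). It was lost without any 1 array (adjusted p 0.0704 to 0.129), and none of its 6 probe sets passed in the fit over all probe sets. Foxa2 and Gata6, partners of Nkx2-1 in the lung, had differences of 0.06 (adjusted p = 0.570) and 0.14 (adjusted p = 0.166).

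Of 16 airway secretory markers, limma called 1 up and 0 down (2 and 0 at an unadjusted p of 0.05), beside 5.87% and 5.63% of all genes, with a median difference of 0.00. The riser was Aldh3a1, an aldehyde dehydrogenase gene, with 440.1, 408.8 and 335.8 on PIK3CA shRNA arrays, against 226.7, 218.2 and 221.1 on control shRNA arrays. It rose by 0.78 (limma adjusted p = 0.0119, and 0.0514 without control shRNA replicate 2).

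**Figure D4:**
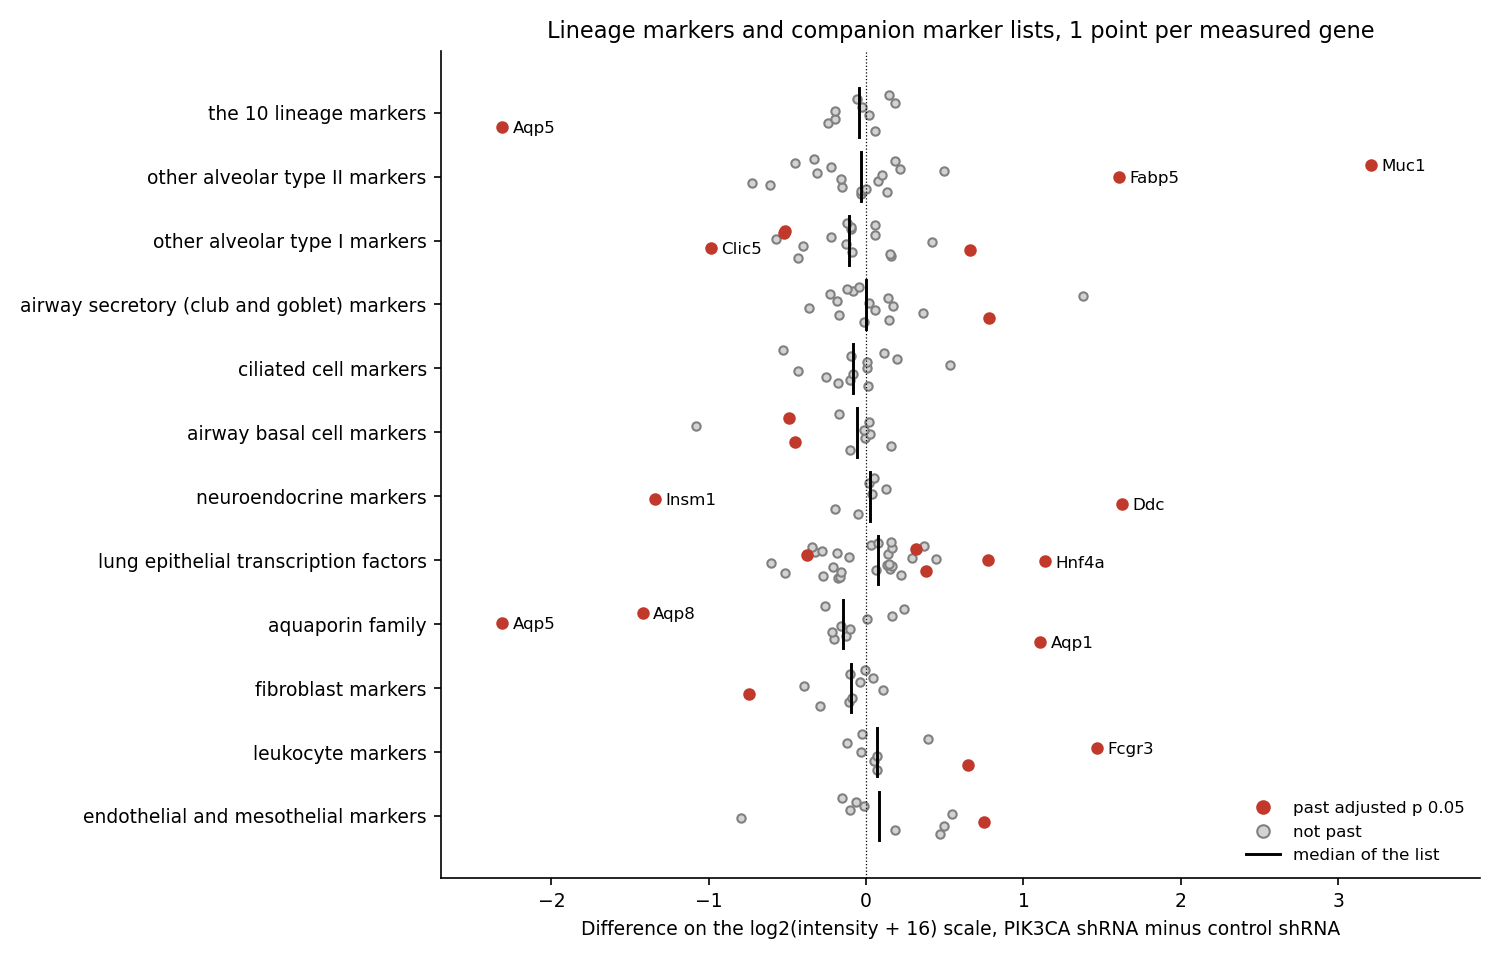
Log2(intensity + 16) difference, PIK3CA shRNA less control shRNA (horizontal axis) for each measured gene of the 10 lineage markers and of 11 companion lists (rows), with genes past adjusted p 0.05 in red and each list's median as a bar. List medians lie between -0.14 and 0.08, and among the lineage markers Aqp5 at -2.31 is the single red point.

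Markers of cell types other than epithelium were measured on the same arrays, and their counts stand beside 5.87% higher and 5.63% lower over all genes. Of 10 fibroblast markers 0 rose and 1 fell (0 and 2 at an unadjusted limma p of 0.05), namely Dcn at -0.75 (limma adjusted p = 0.00920). As the mean of its 2 probe sets Dcn was -0.33 (adjusted p = 0.0439), since the dimmer one read 12.4 to 14.4 in PIK3CA shRNA cells and 11.4 to 12.3 in control shRNA cells. The fibroblast markers' summed intensity was 1089 to 1503 in PIK3CA shRNA cells and 1241 to 1444 in control shRNA cells. Leukocyte markers had 2 of 9 higher and 0 lower (2 and 0 unadjusted), Fcgr3 at 1.47 (adjusted p = 0.00180) and Cd14 at 0.65 (adjusted p = 0.0113). Their sums were 2509 to 2913 in PIK3CA shRNA cells and 1749 to 1939 in control shRNA cells. Most of this was Cd14, which averaged 1712 ± 182 in PIK3CA shRNA cells and 1082 ± 7.20 in control shRNA cells (SD, n = 3 each). The remaining leukocyte markers did not pass. Endothelial and mesothelial markers had 1 of 10 higher and 0 lower (2 and 1 unadjusted), with sums of 9109 to 9613 in PIK3CA shRNA cells and 5614 to 6079 in control shRNA cells. That sum was mostly Msln, the mesothelin gene, which is also made by carcinomas and averaged 8669 ± 294 in PIK3CA shRNA cells and 5159 ± 222 in control shRNA cells (SD, n = 3 each). Their part in the marker results was not tested.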

How the data were processed

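RNA of 6 samples of 344SQ cells was labelled with biotin and hybridised to Affymetrix arrays, per the labels' protocols. The authors deposited linear intensities, 1 per probe set and array, with the same minimum and maximum on all 6 arrays and nearly equal quartiles. How they were summarised and normalized is not stated in those sources. All 6 arrays were used.

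Intensities were scaled to a common median (factors 0.998716 to 1.00194) and taken to log2(intensity + 16). No test used the 64 Affymetrix control probe sets. The platform annotation gives 34958 probe sets 1 gene symbol and 932 several, and it lists none for 9211. Identifiers of 34754 were found in a RefSeq table of assembly GRCm38.p6, which changed 0 symbols. The probe set with the highest mean log2 value stood for its gene, which left 18193 genes (9010 with several probe sets). A second fit used all 45037 non-control probe sets.

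The comparison was made in R 4.3.3 with lmFit and eBayes of limma 3.58.1, two-sided and without a replicate block, and with Benjamini-Hochberg adjustment over the whole table. Adjusted p-values are from the gene fit unless another is named. Intervals are 95% limma intervals of single genes, not adjusted. Exact permutation tests used the 20 assignments of 3 against 3 arrays. In simulated data with 18193 genes and 200 changed, 18.6%, 62.1% and 87.5% of changes of 0.5, 1 and 2 on the log2 scale were recovered, with 3 false calls among 115. The data themselves gave 2092 called genes. Recovery under this adjustment depends on the share of changed genes, so these rates need not hold for the data.

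The 10 markers and the 11 companion lists (160 of 166 distinct genes measured, markers included) were chosen with earlier results of these data known. All markers were named, with up to 4 genes past the threshold per list and the 3 genes with profiles most like a called marker. The neighbours of Aqp5, Nr3c1 and list members named without a call were chosen after their values were seen. Motifs were searched in 250 upstream bases of RefSeq promoters. Alternatives covered normalization, pseudocount, dim genes, probe set choice, variance model, threshold, a replicate block and leaving out each array. Plots were made in Python 3.11.15 using matplotlib 3.10.9.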

Additional observations from a re-analysis of the deposited data

How the results depend on the processing

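Aqp5 kept its direction and its call under all 17 alternatives, from -2.55 to -1.82 with limma adjusted p up to 0.0138. The number of markers called stayed at 1 except for 2 when the probe set with the widest interquartile range stood for each gene, where Hopx is read by its dimmer probe set. The number of marker probe sets called went to 1 with the replicate block, a pseudocount of 1 and adjusted p 0.01, and was 1 in all 6 leave-outs (range 1 to 1), the Hopx probe set being lost each time. Over all genes the count was 410 with the replicate block, 635 at adjusted p 0.01, 3192 with a robust prior and intensity trend, and 953 to 1138 with 1 array left out, where fewer arrays were fitted. For the rest the cause was not tested. The labels do not say whether same-numbered arrays were paired. Correlations of their deviations were 0.0484, -0.0208 and -0.0205, and 2 of 6 arrays correlated best with their own number. With 3 arrays a group, these values cannot show that the arrays were unpaired. The block left 8 of the 22 called companion genes past the threshold.

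Signs of uncalled markers changed with the processing. Sftpa1 was 0.12 as the mean of its probe sets and 0.27 by its most variable probe set (widest interquartile range), and Pdpn was -0.012 with array weights. With 1 array left out, the ranges that include both signs were -0.12 to 0.18 for Pdpn, -0.082 to 0.020 for Sftpa1, -0.16 to 0.047 for Sftpc, -0.35 to 0.058 for Nkx2-1, -0.42 to 0.25 for Scgb1a1 and -0.036 to 0.15 for Ager. Nr3c1 was -0.14 by its most variable probe set. Of the 22 companion genes, 12 kept their call in all 6 leave-outs. Scgb1a1 has no value where dim genes were left out. With no detection calls, signal over background could not be assessed.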

Other observations

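Of 8 measured neuroendocrine markers, 1 rose and 1 fell, against 5.87% and 5.63% of all genes. Ddc, which encodes the decarboxylase of dopamine and serotonin synthesis, read 309.7, 289.4 and 315.8 on PIK3CA shRNA arrays, against 82.6, 80.3 and 101.7 on control shRNA arrays. It rose by 1.63 (limma adjusted p = 0.000839), although only 1 of its 2 probe sets passed and the value was 0.84 as the mean of both. The other Ddc probe set was dim, at 13.1 to 14.1 in PIK3CA shRNA cells and 7.79 to 17.4 in control shRNA cells. Insm1, a zinc finger factor of neuroendocrine differentiation, read 446.6, 400.1 and 451.8 on PIK3CA shRNA arrays, against 1143, 1022 and 1201 on control shRNA arrays. It fell by 1.34 (limma adjusted p = 0.00125), and both of its probe sets passed.

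Of 10 airway basal markers, limma called 0 up and 2 down (1 and 3 at an unadjusted p of 0.05), beside 5.87% and 5.63% of all genes. Snai2 fell by 0.49 (limma adjusted p = 0.00771) and Icam1 by 0.45 (adjusted p = 0.0110). Only 1 of the 2 Snai2 probe sets passed, and it is of a kind whose probes may also match other sequences. The other had the opposite sign, at 0.33 with overlapping groups (adjusted p = 0.659 in limma's fit over all probe sets). The Snai2 call was lost with the mean of probe sets, at -0.083 (adjusted p = 0.827). Of 13 ciliated cell markers, 0 rose and 0 fell in limma's fit (1 and 0 at an unadjusted p of 0.05), where 11.5% of all genes were called, and their median difference was -0.09.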
